A study of Mus musculus with 14 samples.

Results

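The genes described here are 7 markers of mast cells, basophils and eosinophils: Prg2 and Epx, which encode proteins of the eosinophil granule, Mcpt8 and Prss34, which encode basophil proteases, Cpa3, which encodes the mast cell carboxypeptidase, and Ms4a2 and Fcer1a, which encode the beta and alpha chains of the high-affinity IgE receptor. They were taken by gene symbol from a table of 19155 genes measured on arrays, and each of the 7 had 1 probe set. Mast cells, basophils and eosinophils are the granulocytes of allergy and of the defence against parasites. They store proteases, basic proteins and histamine in granules, and on mast cells and basophils IgE bound to its receptor triggers their release. All of them arise in the bone marrow from progenitors that use the factors GATA1 and GATA2, and transcripts of their granule proteins appear while the cells are still dividing progenitors. The receptor tyrosine kinase cKit is kept by mast cells and is mostly lost by mature basophils and eosinophils.

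Expression was measured on 14 arrays in 4 groups: 3 of old MPP4, 5 of young MPP4, 3 of old MPP3 and 3 of young MPP3. All mice were wild-type C57BL/6 without treatment, 24 months old in the old groups and 8 to 10 weeks old in the young groups. MPP3 are myeloid-biased and MPP4 lymphoid-biased multipotent progenitors of the bone marrow. Both were sorted as lineage-negative cells positive for cKit and Sca-1, MPP3 being Flk2-, CD48+ and CD150- and MPP4 being Flk2+. This is the gate that the series gives for these arrays, while the general methods of the study print CD150+ for MPP3. Each array carried amplified RNA of 20000 cells sorted a second time for purity. The lineage antibodies named in the study's methods were against T cell, B cell, erythroid and general myeloid antigens, and none was named for mast cells, basophils or eosinophils. The samples are described as biological replicates and are not tied to single mice, so p-values measure only the spread between these samples. In such bulk samples a change in the number of cells that carry a transcript and a change in the amount per cell cannot be told apart.

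A normalized value here is a rank on an exponential scale: the natural logarithm, with its sign turned, of the share of ranked probe sets on the array at or above the gene. A value of 0.693 is the middle of an array, higher values are brighter, and the share at or above a value is given as a percentage. Values are compared between arrays for the same gene only, and a difference is never a fold. The background of an array was the value below which 95% of 1016 olfactory receptor genes lay, since blood progenitors should lack these receptors. It lay between 0.509 and 0.601 on 12 arrays and was 0.749 on old MPP3 replicate 3 and 0.682 on young MPP3 replicate 1. By their dimmest probe sets the arrays clustered in 2 sets with no counterpart in the labels, 1 of all 6 old and 3 young arrays and the other of 5 young arrays. Xist, the transcript of the inactive X chromosome, was above a value of 1 on 4 young arrays (replicates 1, 4 and 5 of MPP4 and replicate 1 of MPP3) and on no old array. This sign of female cells was thus not balanced between the ages. The series states that the young samples are also held under another series, so a difference between series and a difference with age cannot be told apart.

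The start regions of 6 of the 7 genes are in the RefSeq promoter table (build GRCm38.p6), and Prg2 is named only. The 200 bases before the start given in that table are shown for the 4 members with a GATA motif there, because GATA factors act in these lineages. Each is written 5′ to 3′ on the strand of the gene, with AGATAA or its reverse complement TTATCT in capitals. They lie at chr17:25298194-25298393 (plus strand, Prss34), chr3:20242182-20242381 (minus, Cpa3), chr19:11623720-11623919 (minus, Ms4a2) and chr1:173227230-173227429 (minus, Fcer1a).
Prss34: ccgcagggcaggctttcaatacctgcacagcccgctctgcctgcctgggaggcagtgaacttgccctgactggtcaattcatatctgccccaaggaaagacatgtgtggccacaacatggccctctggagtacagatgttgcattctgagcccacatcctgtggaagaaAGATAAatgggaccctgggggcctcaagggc
Cpa3: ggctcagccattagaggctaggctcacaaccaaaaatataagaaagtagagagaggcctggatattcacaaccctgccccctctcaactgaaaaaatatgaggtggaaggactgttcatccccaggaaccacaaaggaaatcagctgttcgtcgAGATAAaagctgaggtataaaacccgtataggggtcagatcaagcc
Ms4a2: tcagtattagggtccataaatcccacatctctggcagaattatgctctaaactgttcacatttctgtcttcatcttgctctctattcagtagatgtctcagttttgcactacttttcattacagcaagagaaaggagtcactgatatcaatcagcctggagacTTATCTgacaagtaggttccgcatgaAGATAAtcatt
Fcer1a: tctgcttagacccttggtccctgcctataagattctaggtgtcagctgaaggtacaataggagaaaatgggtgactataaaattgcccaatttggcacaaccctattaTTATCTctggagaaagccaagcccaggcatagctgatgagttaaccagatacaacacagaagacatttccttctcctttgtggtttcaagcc

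The GATA motif was searched on both strands with either AGATA or TGATA before a final A or G, and every match in these genes was AGATAA. It ended 26 bases before the promoter table's start of Prss34, 41 bases before that of Cpa3 and 87 bases before that of Fcer1a. Ms4a2 had a pair of matches that ended 32 and 6 bases before its start in the promoter table. That start lay inside the RefSeq gene span of Ms4a2, which runs to 11623790, and so did both matches. The window of Mcpt8 also lay wholly inside its gene span, and those of Cpa3 and Fcer1a did in part. Of all 32851 promoters of this length, 21.4% held the motif. The RUNX motif TGTGGT was in the windows of Mcpt8, Cpa3 and Fcer1a and in 11.2% of all promoters. The E box words CAGCTG and CATCTG were in the windows of Prss34, Mcpt8, Cpa3 and Fcer1a and in 21.2% of all promoters, while the PU.1 motif GAGGAA was in that of Mcpt8 and in 19% of all promoters. None of these motifs overlapped another in the 6 windows. A match is a description of the letters and not a measured binding site.

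Prg2 (chromosome 2, 84980461 to 84983632, RefSeq gene span in GRCm38.p6, as for all spans given) encodes the major basic protein of the eosinophil granule. Its values were 0.645, 0.441 and 0.477 in old MPP4 and 0.408, 0.812, 0.281, 0.351 and 0.261 in young MPP4. In MPP3 they were 3.26, 3.20 and 1.46 on the old arrays and 1.36, 1.82 and 1.82 on the young arrays. Both MPP3 groups lay above background on every array and above every MPP4 array, and 2 of the 3 old MPP3 arrays were far above the young ones, with the third inside the young range. On old MPP3 replicate 1 only 3.84% of ranked probe sets were at or above Prg2, against 16.1% on the brightest young MPP3 array. The group means were 2.64 ± 1.02 in old MPP3 (SD, n = 3) and 1.67 ± 0.267 in young MPP3 (SD, n = 3).

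Epx (chromosome 11, 87863997 to 87875536) encodes eosinophil peroxidase, which makes oxidants from the same granules. It read 0.292, 0.336 and 0.273 in old MPP4 and 0.301, 0.305, 0.225, 0.217 and 0.176 in young MPP4, below background throughout. Old MPP3 read 0.644, 0.847 and 0.414, and young MPP3 0.206, 0.238 and 0.221. Old MPP3 replicates 1 and 2 were the only arrays on which Epx passed the background of its own array, and all 3 old MPP3 arrays lay above all 11 others. The old MPP4 arrays lay above the young MPP3 arrays, and young MPP4 overlapped both of these groups, all of them under background.

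Mcpt8 (chromosome 14, 56082163 to 56085499) encodes mast cell protease 8, which in mice is made by basophils and their progenitors. Its values were 1.18, 0.869 and 1.42 in old MPP4 and 0.234, 1.01, 0.609, 0.598 and 0.539 in young MPP4. Old MPP3 read 2.50, 2.69 and 0.959, and young MPP3 0.680, 1.37 and 1.36. Mcpt8 was the member whose populations overlapped at both ages: the lowest old MPP3 array lay among the old MPP4 arrays, and the lowest young MPP3 array among the young MPP4 arrays. The 2 bright old MPP3 arrays had 8.18% and 6.79% of probe sets at or above Mcpt8.

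Prss34 (chromosome 17, 25298394 to 25300168) encodes mast cell protease 11, another basophil protease. It was near background in most samples, with 0.643, 0.545 and 0.492 in old MPP4 and 0.460, 0.653, 0.569, 0.487 and 0.493 in young MPP4. In old MPP3 it read 1.14, 1.04 and 0.794, and in young MPP3 0.662, 0.744 and 0.716. The 3 old MPP3 arrays were above every other array, and the young MPP3 arrays were in turn just above every young MPP4 array, by a gap of 0.00885.

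Cpa3 (chromosome 3, 20215616 to 20242209) encodes carboxypeptidase A3, which is stored in mast cell granules and is also transcribed in basophils and in early myeloid progenitors. Its values were 0.406, 0.563 and 0.448 in old MPP4 and 0.291, 0.421, 0.315, 0.197 and 0.496 in young MPP4, under the background of each of these arrays. They were 2.56, 1.75 and 1.64 in old MPP3 and 1.13, 1.89 and 2.00 in young MPP3, well above it. Cpa3 separated the populations at both ages, and the 2 ages overlapped within each population.

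Fcer1a (chromosome 1, 173221269 to 173227232) encodes the chain of the IgE receptor that binds IgE. It read 0.213, 0.191 and 0.168 in old MPP4 and 0.149, 0.172, 0.0524, 0.0795 and 0.0684 in young MPP4. In old MPP3 it read 2.10, 1.42 and 0.258, and in young MPP3 0.271, 0.711 and 0.188. The arrays of old MPP3 thus spanned from the brightest value of Fcer1a to one within the young range, and young MPP3 replicate 2 was the only young array above background.

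Ms4a2 (chromosome 19, 11615517 to 11623790) encodes the chain that amplifies the signal of that receptor. Its values were 0.152, 0.116 and 0.130 in old MPP4, and in young MPP4 they lay between 0.113 and 0.174 with a median of 0.146. Old MPP3 read 0.767, 0.832 and 0.210 and young MPP3 0.135, 0.185 and 0.200. Old MPP3 replicates 1 and 2 were the only arrays above background for Ms4a2, and the third old array passed the highest young one by 0.0104. Fcer1g, the gamma chain that the receptor shares with other Fc receptors, was above background on every array, with 1.66, 1.72 and 1.70 in old MPP3 and 1.65, 1.24 and 1.25 in young MPP3.

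**Figure D1:**
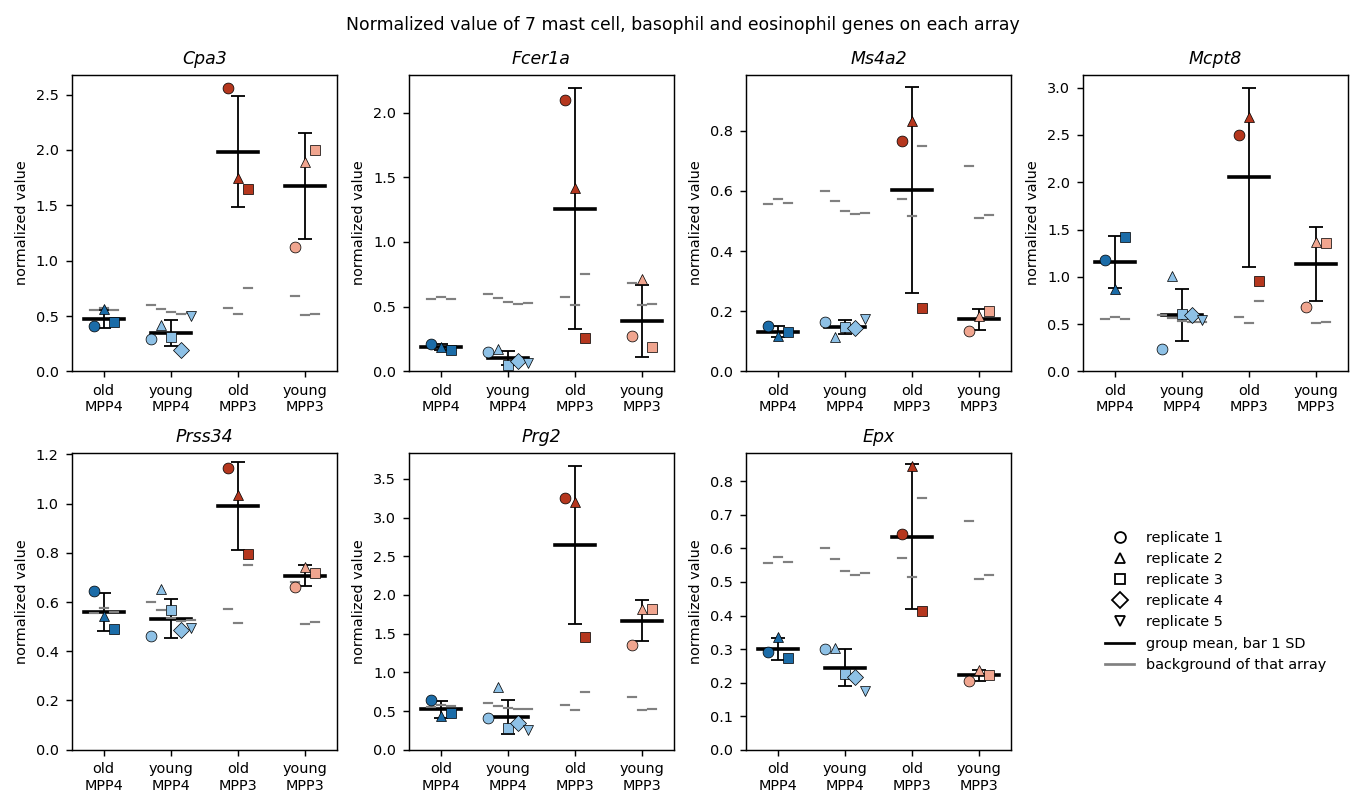
Normalized value (vertical axis, no unit, 0.693 is the middle of an array) of each gene on each of the 14 arrays, by group from left to right: old MPP4, young MPP4, old MPP3, young MPP3. Points are arrays with a shape per replicate number, black lines are group means with 1 SD, and grey dashes are the olfactory receptor background of that array. Old MPP3 replicates 1 and 2 are the 2 brightest arrays for 6 of the genes, and for Cpa3 only replicate 1 is above every young MPP3 array.

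The first comparison asked whether the genes differ with age in the myeloid-biased population. All 7 had a higher mean in old MPP3 than in young MPP3, and the fitted differences, old minus young, were 0.975 ± 0.530 for Prg2, 0.916 ± 0.516 for Mcpt8, 0.868 ± 0.488 for Fcer1a, 0.430 ± 0.174 for Ms4a2, 0.413 ± 0.111 for Epx, 0.311 ± 0.348 for Cpa3 and 0.284 ± 0.0947 for Prss34 (SE, n = 3 each). None passed the threshold of 0.05 in limma with Benjamini-Hochberg adjustment over all genes, where adjusted p lay between 0.511 (Epx) and 0.845 (Cpa3), and 0% of all genes passed it (the smallest adjusted p of any gene was 0.471). Before adjustment 2 members passed 0.05 (Epx and Prss34), as did 3.44% of all genes in the higher direction. The old and young arrays did not overlap for Epx, Prss34 and Ms4a2, a pattern that 6.14% of all genes showed in this direction. The median difference over the members was 0.430, against 0.000183 over all genes, and 50.1% of all genes had a higher mean in the old group.

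The 3 old MPP3 arrays did not contribute alike. On replicate 1 all 7 members were above every young MPP3 array, on replicate 2 the same held for 6 of 7 (the exception was Cpa3), and on replicate 3 for 3 of 7 (Epx, Prss34 and Ms4a2). No member was below every young array on any of them. The mean over the 7 genes was 1.85, 1.68 and 0.820 on the old MPP3 arrays and 0.634, 0.995 and 0.929 on the young ones. Without old MPP3 replicate 3 the difference was 1.56 for Prg2, 1.46 for Mcpt8 and 1.37 for Fcer1a, and without old MPP3 replicate 1 it was 0.449 for Fcer1a and 0.0223 for Cpa3. Without young MPP3 replicate 1 it was 0.0377 for Cpa3. Without old MPP3 replicate 3 and young MPP3 replicate 1 together, the 2 arrays of highest olfactory background and a setting chosen after the values were seen, it was 1.41 for Prg2, 1.31 for Fcer1a and 0.607 for Ms4a2, and again none passed, the lowest adjusted p being 0.144 by limma.

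In the lymphoid-biased population the age differences were smaller. Mcpt8 had the largest, with means of 1.15 ± 0.275 in old MPP4 (SD, n = 3) and 0.597 ± 0.275 in young MPP4 (SD, n = 5) and a difference of 0.557 ± 0.182 (SE), adjusted p = 0.440 in limma. Young MPP4 replicate 2 lay among the old arrays, so the groups overlapped. The differences of the other members lay between −0.0158 (Ms4a2) and 0.128 (Cpa3), and Fcer1a, at 0.0864 ± 0.0328 (SE), was below background on all 8 arrays. None of the 7 passed, the groups overlapped for each of them, and 2 (Mcpt8 and Fcer1a) passed 0.05 before adjustment, where 4.5% of all genes did so in the higher direction. The mean was higher in old MPP4 for 6 of the 7 and for 49.8% of all genes. Of all genes, 0% passed after adjustment in this comparison. The direction of Prss34, Prg2, Epx and Ms4a2 changed under at least 1 other setting, and those of Mcpt8, Cpa3 and Fcer1a did not.

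Whether the populations differ was asked within each age. In old mice all 7 members had a lower mean in MPP4 than in MPP3. The differences, MPP4 minus MPP3, were −2.12 ± 0.518 for Prg2, −1.51 ± 0.257 for Cpa3, −1.07 ± 0.468 for Fcer1a, −0.897 ± 0.498 for Mcpt8, −0.471 ± 0.173 for Ms4a2, −0.431 ± 0.0994 for Prss34 and −0.335 ± 0.111 for Epx (SE, n = 3 each). Adjusted p by limma lay between 0.239 (Cpa3) and 0.628 (Mcpt8), so none passed, as for 0% of all genes. Before adjustment 5 of the 7 passed 0.05 (all but Mcpt8 and Fcer1a), against 3.64% of all genes in the lower direction. Of all genes, 48.3% had the higher mean in MPP4. The arrays of the populations did not overlap for 6 of the 7, all but Mcpt8, which 7.6% of all genes showed in this direction. Without old MPP3 replicate 3 the difference of Prg2 was −2.71 with an adjusted p of 0.0199 by limma, and it was the single member that passed.

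In young mice 6 of the 7 had a lower mean in MPP4 than in MPP3, and Epx had a difference of 0.0231 ± 0.0347 (SE). The differences were −1.33 ± 0.193 for Cpa3 and −1.24 ± 0.159 for Prg2 (SE, n = 5 and 3), with adjusted p of 0.0672 and 0.0528 by limma, close to the threshold and not past it. They were −0.538 ± 0.211 for Mcpt8, −0.286 ± 0.112 for Fcer1a and −0.175 ± 0.0481 for Prss34 (SE), and Ms4a2 and Epx were under background in both groups. Of all genes, 0.0626% passed in the lower direction, and 5 members passed 0.05 before adjustment, where 5.53% of all genes did so. The groups did not overlap for Prg2, Cpa3, Prss34 and Fcer1a, against 3.72% of all genes, and 49.9% of all genes had the higher mean in MPP4. The calls for Prg2 and Cpa3 depended on single arrays: without young MPP3 replicate 1 both passed (adjusted p of 0.0325 for Prg2 and 0.00125 for Cpa3, limma), and without young MPP4 replicate 2 Prg2 alone did (0.0289, limma).

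The age difference in MPP4 minus that in MPP3 was below 0 for all 7 members, and it was tested directly on all 14 arrays. It was −0.358 ± 0.109 for Epx, −0.446 ± 0.160 for Ms4a2, −0.256 ± 0.107 for Prss34, −0.876 ± 0.510 for Prg2 and −0.781 ± 0.448 for Fcer1a (SE). For Mcpt8 it was −0.359 ± 0.521 and for Cpa3 −0.183 ± 0.330 (SE), with 95% intervals from −1.50 to 0.784 and from −0.906 to 0.541. The direction for Cpa3 and Mcpt8 turned on percentile ranks, to 3.62 and 8.92 percentile points, and that for Cpa3 also on normal scores (0.0228), without old MPP3 replicate 1 (0.106), without young MPP3 replicate 1 (0.0908) and without the arrays with Xist signal (0.0669). None passed in limma (adjusted p between 0.698 and 0.973), and 0% of all genes did. Before adjustment 3 members passed (Epx, Ms4a2 and Prss34), where 2.83% of all genes did so below 0, and 48.7% of all genes had a value above 0. Without old MPP3 replicate 3, Ms4a2 alone passed, at −0.642 with an adjusted p of 9.57e-05 by limma. The age comparisons and the population comparisons share arrays, so these sets of differences are not independent of one another.

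**Figure D2:**
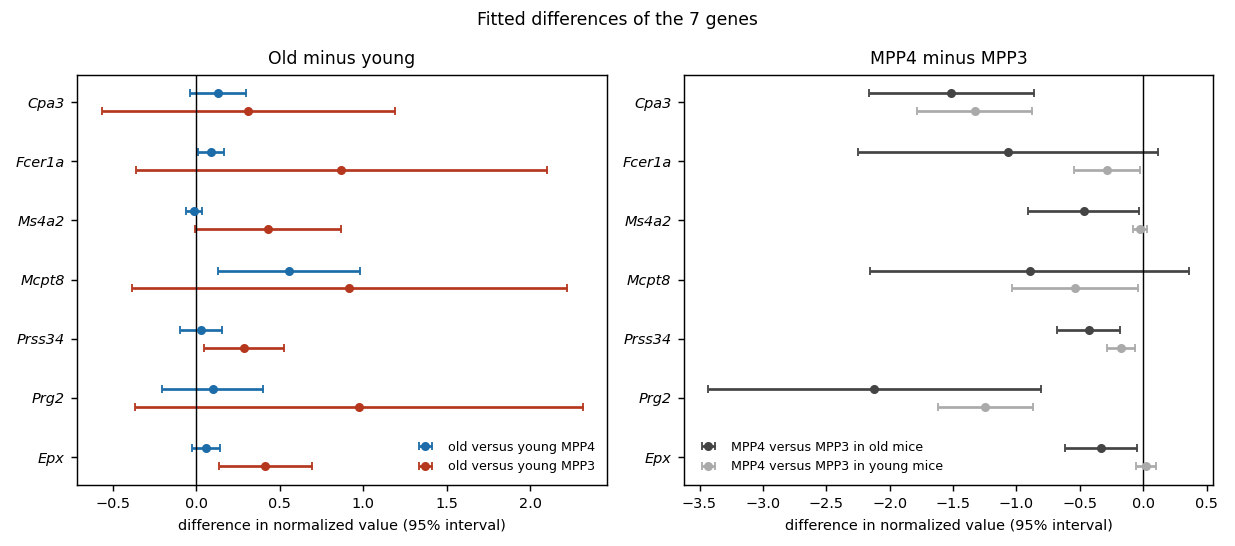
Fitted difference in normalized value of each gene (points) with its 95% interval (bars), on the left old minus young in MPP4 (blue) and in MPP3 (red), on the right MPP4 minus MPP3 in old mice (dark) and in young mice (light). Intervals are those of single genes before adjustment, and those of the MPP3 age comparison for Prg2, Mcpt8, Fcer1a, Cpa3 and Ms4a2 include 0.

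Each gene thus had its highest group mean in old MPP3. For Prg2, Cpa3, Prss34 and Fcer1a young MPP3 came next, followed by old MPP4 and young MPP4. For these 4 genes the MPP4 groups overlapped each other, and for Prg2, Cpa3 and Fcer1a the MPP3 groups did as well. For Ms4a2 the means of young MPP3, young MPP4 and old MPP4 lay within 0.173 and 0.132, all under background, and for Mcpt8 old MPP4 (1.15) and young MPP3 (1.13) were at about the same level with overlapping arrays.

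Other genes of these lineages had smaller age differences at the median of each list than the 7 genes. Of 87 genes listed for mast cells, basophils, eosinophils, IgE receptor signalling, cytokine receptors and transcription factors, 80 were measured, and none passed in the age comparison of either population. In old against young MPP3 the mean was higher for 8 of 18 mast cell genes, 6 of 12 basophil genes, 6 of 8 eosinophil genes, 7 of 15 IgE signalling genes, 5 of 8 cytokine receptors and 8 of 19 transcription factors. Their median differences were −0.00101, 0.0121, 0.0741, −0.0399, 0.0254 and −0.0233 in that order, against 0.430 for the 7 genes. The difference between the lists and the 7 genes was not tested. No list holds any of the 7 by its symbol, but Mcpt11, listed for basophils and not matched, is another name of Prss34. By array, the mean of the 8 eosinophil genes was 0.482, 0.584 and 0.361 in old MPP3 and 0.363, 0.309 and 0.336 in young MPP3. The mean of the 18 mast cell genes was 0.837, 0.826 and 0.708 in old MPP3 and 0.732, 0.794 and 0.784 in young MPP3. Both lists thus had their 2 highest means of all 14 arrays on old MPP3 replicates 1 and 2, where the members were highest too. The basophil list did not share this. The mean of its 12 genes was 1.01, 0.814 and 0.940 in old MPP3 and 0.988, 0.964 and 0.956 in young MPP3. On the MPP4 arrays it lay between 1.08 and 1.21, above every MPP3 array, and old MPP3 replicate 2 was the lowest of all 14.

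Of the 18 measured mast cell genes 3 to 9 were above background on an array, and of the 12 basophil genes 7 to 9. Among the mast cell genes, Srgn had means of 3.78 in old MPP4 and 4.09 in old MPP3. Slc18a2 had means of 1.25 in young MPP4 and 1.93 in young MPP3. Several other genes of mature mast cell granules and receptors on the list were low on all 14 arrays. The tryptase gene Tpsab1 stayed between 0.185 and 0.359, the chymase genes Cma1 and Mcpt4 did not pass 0.400 and 0.319, and Rgs13, Mrgprb1 and Mrgprb2 did not pass 0.0404, 0.0428 and 0.0447, all under the background of their arrays. The other tryptase gene, Tpsb2, lay between 0.447 and 0.790 and passed the background on some arrays, among them young MPP3 replicate 1 (0.790). In old MPP3 Tpsb2 read 0.574, 0.583 and 0.589. Cd200r3, a basophil receptor, reached 0.105 at most, and the eosinophil receptors Il5ra and Ccr3 reached 0.249 and 0.319. Siglecf, a lectin of eosinophils, was above background on every array, with 0.970, 1.03 and 1.14 in old MPP3 and 1.12, 0.816 and 0.805 in young MPP3, and its arrays overlapped between the ages. Kit, whose product is in the sorting gate, lay between 2.63 and 3.10 on all arrays.

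A few list genes were high on the same 2 old MPP3 arrays as the members. Prg3, a second major basic protein, read 1.00, 1.50 and 0.333 in old MPP3 and 0.289, 0.358 and 0.466 in young MPP3. Hdc, the enzyme that makes histamine, read 1.06, 1.88 and 0.389 in old MPP3 and 0.272, 0.800 and 0.766 in young MPP3. Ear6, an eosinophil ribonuclease gene, read 0.792, 0.926 and 0.384 in old MPP3 and 0.437, 0.306 and 0.395 in young MPP3. In all 3 genes replicates 1 and 2 were above every young MPP3 array, and old replicate 3 was not. Their differences did not pass in limma, the adjusted p being 0.643 for Ear6 and 0.666 for Prg3. Hdc was singled out after its values were seen. Other genes of these lists went the other way. Among the 3 largest statistics of each of the mast cell, basophil and eosinophil lists, Alox5 (0.195), Hpgds (0.230), Alox15 (0.147) and Ear6 (0.322) were higher in old MPP3. Kit (−0.205), Il18rap (−0.257), Ifitm1 (−0.607), Hgf (−0.238) and Il5ra (−0.0712) were lower.

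Among the transcription factors the largest statistics in MPP3 were those of Zfpm1, a cofactor of GATA factors, at −0.280 ± 0.0819, Fli1 at 0.136 ± 0.0462 and Cebpe, which acts late in granulocyte development and is needed for eosinophils, at 0.369 ± 0.162 (SE, adjusted p of 0.530, 0.568 and 0.633 by limma). Gata2 was at 1.60, 1.00 and 1.52 in old MPP3 and 1.59, 1.41 and 1.45 in young MPP3, and Gata1 between 0.922 and 1.04 on all 6 arrays. Both GATA genes thus overlapped between the ages in MPP3. Of the IgE signalling genes Syk (−0.167 ± 0.0562), Fyn (−0.610 ± 0.219) and Fcer1g (0.315 ± 0.122, SE) had the largest statistics, and of the cytokine receptors Crlf2, a chain of the receptor for TSLP, had −0.236 ± 0.0727 (SE, adjusted p = 0.549). In old against young MPP4 the largest difference among the cytokine receptors was that of Il18r1, the receptor of interleukin 18, with means of 1.50 ± 0.245 in old MPP4 (SD, n = 3) and 1.01 ± 0.268 in young MPP4 (SD, n = 5).

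Between the populations 1 of the 80 genes passed, in young mice. Of all 19155 genes, 25 passed in young mice and 0% in old mice. Ccl3, a chemokine listed among the basophil genes and also made by other leukocytes, was higher in young MPP4, at 2.57 ± 0.129 (SD, n = 5), than in young MPP3, at 0.937 ± 0.0893 (SD, n = 3), a difference of 1.63 ± 0.0789 (SE, adjusted p = 0.000753 by limma). Its direction was opposite to that of 6 of the 7 members, all but Epx. Gata2 was at 1.24 ± 0.0355 in young MPP4 (SD, n = 5) and 1.48 ± 0.0917 in young MPP3 (SD, n = 3), adjusted p = 0.106 by limma. In old mice the largest statistic among the transcription factors was that of Gata1, the GATA factor of erythroid, mast cell and eosinophil development, with 0.742 ± 0.0271 in MPP4 and 0.979 ± 0.0518 in MPP3 (SD, n = 3 each; adjusted p = 0.222 by limma).

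**Figure D3:**
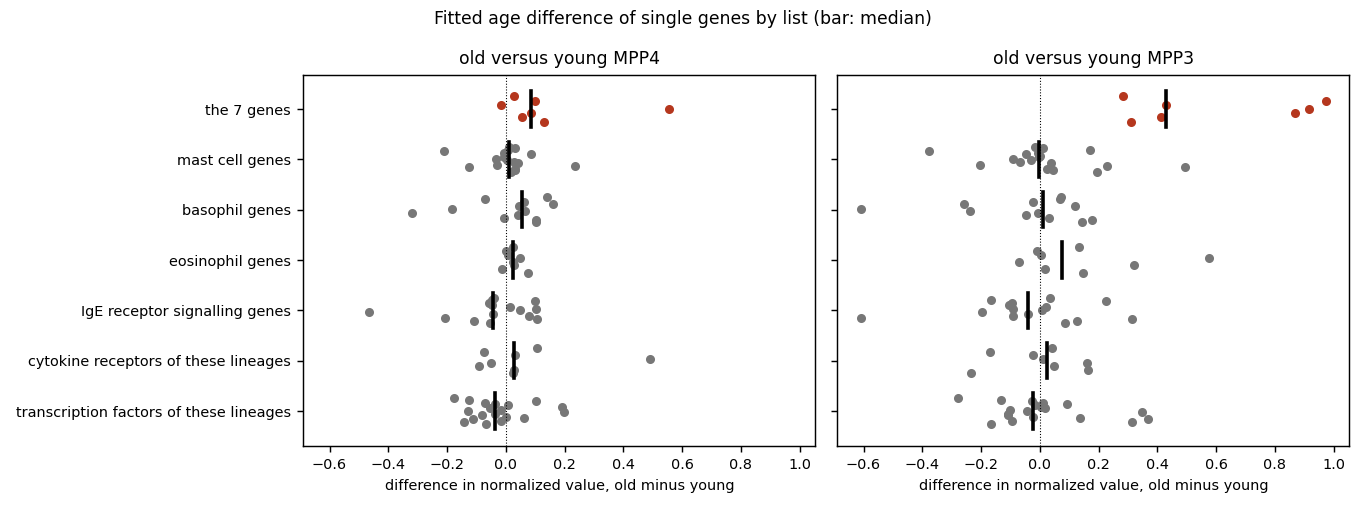
Fitted age difference in normalized value (horizontal axis, old minus young) of single genes, grouped into the 7 genes (red) and 6 lists of other genes of these lineages (grey), in MPP4 on the left and MPP3 on the right, with a black bar at each median. In MPP3 the 7 genes have a median of 0.430 and the lists have medians between −0.0399 and 0.0741.

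Markers of neutrophil progenitors were high on the same arrays as the members. The mean of 7 neutrophil progenitor genes, all measured, was 2.97, 3.51 and 2.21 on the old MPP3 arrays and 1.71, 2.50 and 1.99 on the young MPP3 arrays, and it lay between 1.26 and 1.54 in MPP4. Mpo, the peroxidase of neutrophil and monocyte progenitors, read 5.81, 6.03 and 4.17 in old MPP3 and 4.05, 4.63 and 3.85 in young MPP3. Across the 14 arrays the mean of the 7 members and the mean of these neutrophil genes had a Pearson r of 0.960, and of 0.947 without the 2 arrays of highest member mean. This r is a description, since the arrays share groups and normalization. Each of these 7 neutrophil genes had its higher mean in old MPP3, the median of the differences was 0.998, and none passed.

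The mean of 10 mature neutrophil genes was 0.790 to 1.19 in old MPP3 and 0.527 to 0.735 in young MPP3, while Ltf, Lcn2, Retnlg, Mmp8 and Mmp9 of that list stayed below background on every array. The mean of 6 measured monocyte genes was 1.13, 1.24 and 0.835 in old MPP3 and 0.747 to 0.848 in young MPP3. In MPP4 it was 0.824 to 0.865 in old and 0.785 to 0.918 in young mice, so the young MPP4 and young MPP3 arrays overlapped. Of its genes, 4 had a higher and 2 a lower mean in old than in young MPP3, Klf4 (−0.198) and Lyz2 (−0.0137) being the lower ones. F13a1, the coagulation factor gene of that list, read 1.92, 2.11 and 0.524 in old MPP3 and 0.508, 0.847 and 0.574 in young MPP3, so it was high on the same pair of arrays as Fcer1a and Ms4a2. The mean of 5 erythroid genes was 1.17 to 1.55 in old MPP3 and 1.36 to 1.79 in young MPP3, and that of 5 megakaryocyte genes was 0.559 to 0.806 in old MPP3 and 0.713 to 0.840 in young MPP3. B cell genes had their highest mean on old MPP3 replicate 3, at 1.54 against 0.799 and 0.739 on the other old MPP3 arrays. In young MPP3 this mean was 1.45, 1.39 and 0.753, where the mean of the members was 0.634, 0.995 and 0.929. The mean of 5 T cell genes stayed between 0.362 and 0.495 on all arrays. The part of these other cell types in the results for the 7 genes was not tested.

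**Figure D4:**
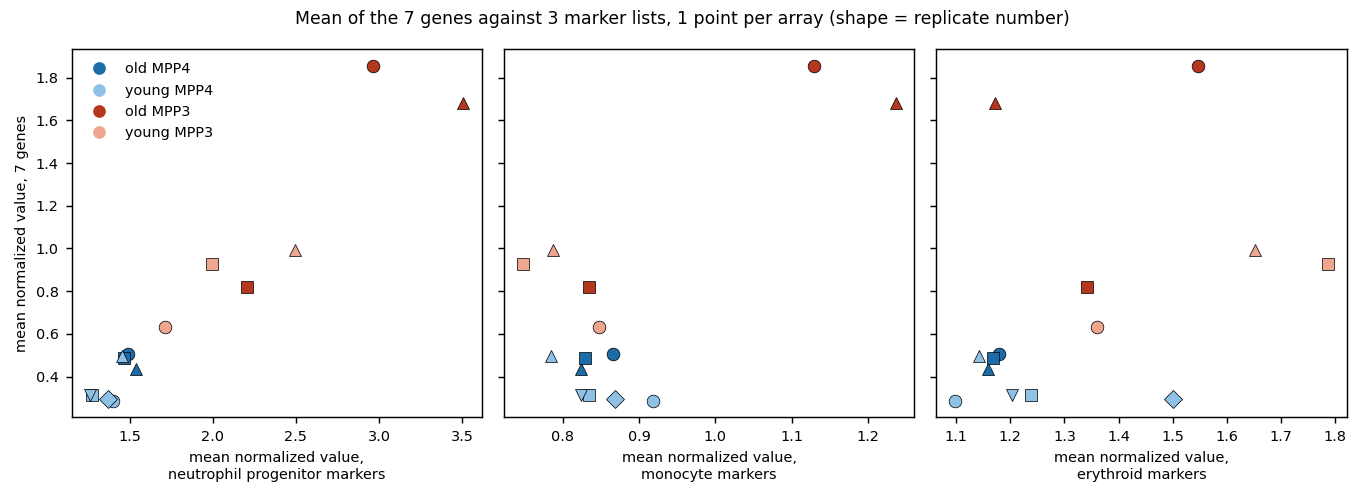
Mean normalized value of the 7 genes (vertical axis) against the mean normalized value of neutrophil progenitor, monocyte and erythroid markers (horizontal axes) on the 14 arrays, 1 point per array, coloured by group and shaped by replicate number. Old MPP3 replicates 1 and 2 lie at the upper right for the neutrophil and monocyte lists, with member means of 1.85 and 1.68.

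The members resembled one another across the arrays to different degrees. Pearson r over the 14 arrays lay between 0.537 (Epx with Cpa3) and 0.962 (Prg2 with Prss34), with a median of 0.872 over the 21 pairs. Without the 2 arrays of highest member mean the median was 0.534, and the range was 0.0581 (Epx with Ms4a2) to 0.956 (Prg2 with Cpa3). On the other 12 arrays Prg2, Cpa3 and Prss34 were at 0.825 or more with each other, differences between groups included. With the mean of each group removed, Prg2 with Cpa3 was at 0.556 and Prss34 with Cpa3 at 0.573, against 0.870 for Prg2 with Prss34 and 0.828 for Epx with Prg2. These values carry no p, since arrays share groups.

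Genes of like pattern were sought among 391 genes, some members included, with an SD over the arrays of at least 0.3 and no Gm or Rik name. Outside the members, those most like Prg2 were Mpo (r of 0.976), Hp, which encodes haptoglobin (0.962), and Ms4a3, a membrane protein gene of granulocyte and monocyte progenitors (0.954). Without the 2 arrays of highest member mean their r was 0.921, 0.929 and 0.900. The same 3 genes led for Prss34, with r of 0.942 for Hp, 0.940 for Mpo and 0.911 for Ms4a3. For Cpa3 they were Ms4a3 (0.890), Igsf6 (0.885) and Elane, the gene of neutrophil elastase (0.867), and for Mcpt8 they were Atp8b4 (0.924), Nkg7 (0.919) and Clec12a (0.911). F13a1 came first for Ms4a2 (0.985) and for Fcer1a (0.953). Without the 2 arrays of highest member mean its r was 0.516 with Ms4a2 and 0.936 with Fcer1a. Prg3 was second for Ms4a2 at 0.962, with 0.353 once the 2 arrays were left out. For Epx the nearest genes were Alas1, the first enzyme of heme synthesis (0.954), Sgms2 (0.948) and Ifngr1 (0.948), whose r without the 2 arrays was 0.505, 0.563 and 0.693.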

How the data were processed

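RNA of sorted bone marrow progenitors was hybridized to Affymetrix Mouse Gene ST 1.0 arrays after amplification. The deposited values are a score: the authors applied RMA and then mapped the quantiles of each array to a standard exponential distribution. Whole ranks of 25307 probe sets made up 92.3% of the values (tolerance 0.01 of a rank), so a value carries order within an array. The methods name a version of R for this step. The genome build of the array annotation is not given in the sources used here. The values were used as deposited, and the number of arrays limits their precision. Of 22115 probe sets, 2135 were not listed in the platform annotation and 744 had several gene symbols; both were left out. Names were updated through RefSeq Entrez numbers, and 71 probe sets without a match kept the symbol of the annotation. For 76 genes with several probe sets the one of highest mean was used, which left 19155 genes.

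Age was compared inside MPP3 and inside MPP4, and MPP4 was set against MPP3 inside each age, on the arrays of the 2 groups only. The difference of the age differences used all 14 arrays. Each was fitted with limma 3.58.1 in R 4.3.3 (lmFit, eBayes, two-sided, Benjamini-Hochberg over all genes, threshold 0.05), after a test on simulated data. The study used SAM, which was not run because it rests on regrouping the arrays. With 3 arrays a group an exact permutation test cannot go below 0.1. Named genes were the 7 members in every comparison, up to 3 genes per list and comparison with the largest moderated statistic, and the 3 genes most like each member by Pearson r; genes given for their levels were chosen after their values were seen. The members and lists were chosen with earlier results of these data known. Of 87 listed lineage genes, 7 that matched no probe set of a single symbol were not analysed here. Replicate numbers did not pair the samples. Alternatives were another variance model, a filter on dim genes, all probe sets, other scalings, array weights, 1 fit of all groups, a replicate block, the array set, arrays without Xist signal, and each replicate left out. Figures were drawn with Python 3.11.15.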

Additional observations from a re-analysis of the deposited data

Results flagged for a closer look

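Prg2 on young MPP4 replicate 2 had a normalized value of 0.812, while the other young MPP4 arrays lay between 0.261 and 0.408. This array was farther from its group than Dixon's criterion allows for 5 samples (its gap to the next array was 0.732 of the group's range). The test was made for the 7 genes in young MPP4 only, the single group with more than 3 arrays, and chance marks about 1 in 20 such groups. On the same array Mcpt8 read 1.01 and Prss34 0.653, the highest of young MPP4 for each. The mean of the B cell markers was 1.26 and that of the neutrophil progenitor markers 1.45, also the highest of that group for each. Their part in the value of Prg2 was not tested.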

How the results depend on the processing

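Of 627 values of single members under other settings, 586 kept their direction and their side of the threshold, 27 passed it anew, 14 changed direction and none fell short after passing. The number of members that passed stayed at 0 in the age comparisons of MPP3 and of MPP4 under every setting that could be run. For MPP4 against MPP3 in young mice it was 4 with array weights (Prg2, Cpa3, Mcpt8 and Prss34), 2 with a variance trend and robust estimation, without the dimmest genes, on normal scores or with the array set as a term, 1 on percentile ranks or in 1 fit of all groups, and 0 to 2 with each replicate left out. In old mice it was 1 in 1 fit of all groups (Cpa3, adjusted p = 0.0447 in limma) and 0 to 1 with each replicate left out. For the difference of the age differences it was 5 with array weights, 0 to 1 with each replicate left out and, in a setting chosen after the data were seen, 2 without the 2 arrays of highest olfactory background (Prg2 at −1.31, Ms4a2 at −0.623). In old against young MPP4 the direction changed for Prss34 with the replicate block (−0.000628), without old MPP4 replicate 1 (−0.0137, and up to 0.0617 with other replicates left out) and without the arrays with Xist signal (−0.0510), for Epx with the array set (−0.00241), for Prg2 with the array set (−0.0890) and without the Xist arrays (−0.0256), and for Ms4a2 without the Xist arrays (0.00291). In young mice Epx changed with array weights (−0.00674). For the difference of the age differences Cpa3 changed on normal scores (0.0228), on percentile ranks (3.62 points), without the Xist arrays (0.0669), without young MPP3 replicate 1 (0.0908) and without old MPP3 replicate 1 (0.106, the other end of that range being −0.353), and Mcpt8 on percentile ranks (8.92 points). The cause was not tested for any of these. Samples with the same replicate number did not deviate together in a way that pairs them (r between −0.192 and 0.407, and 11 of 24 samples resembled best the sample of their own number). The replicate block was fitted on arrays whose replicate number all compared groups shared, which left out young MPP4 replicates 4 and 5. With this block 0 members passed in each comparison. In young mice 0 genes passed with it, against 25 without it on all arrays of the 2 groups. Counts over all genes moved from 0 to 9 in 1 fit of all groups and to 1 with the array set for MPP3 age, and to 304 with array weights, 1 in 1 fit of all groups and 0 to 15 with replicates left out for MPP4 age. For young mice (25) they were 48 with a variance trend, 59 without the dimmest genes, 51 on normal scores, 1808 with array weights, 271 with the array set, 0 without the Xist arrays and 8 to 108 with replicates left out. For old mice they were 1 without the dimmest genes, 2 on normal scores, 27 in 1 fit of all groups and 0 to 3 with replicates left out. For the difference of the age differences they were 2 with a variance trend, 574 with array weights, 0 to 10 with replicates left out and 31 without the 2 arrays of highest olfactory background. Epx and Ms4a2 were removed by the filter on dim genes, each member had 1 probe set, and the array set could not be a term in old mice, where all arrays were in 1 set. With 3 arrays in most groups, differences of members near background were not resolved.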
